A study of Mus musculus with 12 samples.

Results

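Short stretches of chromosomes 12 and 14 in cultured mouse malignant peripheral nerve sheath tumour (MPNST) cells gave higher DNA ratios than the probes around them, and they are described here probe by probe. They hold 17 of the 42404 probes on the array: 8 on chromosome 12 around Srp54a and 9 on chromosome 14 around Slc25a37 and Entpd4, each stretch with the 40 probes that flank it, 20 on each side. The stretches were chosen by position because earlier results on these arrays had shown high tumour over reference ratios there, so that ratio is given below as a description with no test. The choice was made on that ratio, not on the difference between strain backgrounds, the number of genome matches of each probe or the difference between the repeat arrays of 1 tumour. The strain difference and the repeat arrays still come from the same arrays, so they are no independent support for the stretches. The 2 dye channels, also taken apart below, make up the ratio that chose the stretches and are no independent support for them.

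Array comparative genomic hybridisation compared DNA of MPNST cells, labelled with Cy5, with DNA of non-neoplastic Schwann cells, labelled with Cy3, on 12 arrays. The tumours carried the P0-GGFβ3 transgene, in which the P0 promoter of myelinating Schwann cells drives the neuregulin-1 isoform GGFβ3, and the reference cells were wild-type and labelled C57BL/6J. Of 11 tumours, 4 (B76, B86, B91 and B96) were on C57BL/6J, and 7 (231 Trig, A18, A202, A292, A382, A390 and A394) were on a mixed background of C57BL/6J and SJL/J. Tumour cells were started with forskolin and neuregulin and then kept without them, whereas the Schwann cells had both throughout. The titles give passages from 5 to 13 for 10 tumours and none for 231 Trig. Passages 8 and 9 of A382 were put on an array each, and their mean counts as 1 tumour. The labels do not say whether the tumours came from separate mice, and every p-value below measures only the spread between these cultures. DNA carries no expression markers, so the cell types could not be checked.

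The signal recognition particle is an RNA and protein complex that binds the signal peptide of a growing chain and brings the ribosome to the endoplasmic reticulum. Srp54 proteins are its GTPase subunit. Slc25a37, or mitoferrin-1, carries iron into mitochondria, where it is used for heme and for iron-sulfur clusters. Entpd4 is a nucleoside diphosphatase of the Golgi and lysosomal membranes, of the family that strips phosphates from nucleotides. Copy number ratios read DNA dose, not the activity of these genes, and in a culture a larger change in fewer cells cannot be told apart from a smaller one in more cells.

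The chromosome 12 stretch turned on 6 probes, shown here because each of them has more than 1 exact match in the genome build mm9 according to the array files. They run 5′ to 3′ with their first match in mm9, and the strand is not given.
Srp54a, chr12:56206091-56206150: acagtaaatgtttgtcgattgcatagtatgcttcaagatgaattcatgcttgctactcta
AK021321, chr12:56225206-56225262: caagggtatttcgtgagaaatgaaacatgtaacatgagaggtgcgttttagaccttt
1700047I17Rik1, proximal probe, chr12:56227337-56227396: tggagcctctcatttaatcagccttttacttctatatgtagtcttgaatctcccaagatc
1700047I17Rik1, distal probe, chr12:56231580-56231639: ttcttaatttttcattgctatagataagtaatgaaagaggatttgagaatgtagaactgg
unnamed, proximal probe, chr12:56246207-56246266: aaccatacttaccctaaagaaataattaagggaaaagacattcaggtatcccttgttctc
unnamed, distal probe, chr12:56247448-56247507: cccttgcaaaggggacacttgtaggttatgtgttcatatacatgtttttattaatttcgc
The other 2 window probes, of 2700097O09Rik, have 1 match each.

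For 5 of the 6 probes the second match lies between 75060 and 75064 bp further along chromosome 12 and is the last one listed. The proximal unnamed probe has a match at 75064 bp and a further one at 139545 bp. These matches fall in a gap of 214 kb that holds no array probe, between the distal unnamed probe and the first probe of AK151976. In the GRCm38 gene order from RefSeq, Srp54a is followed by Fam177a, Gm2436, Srp54b, Fam177a2, Gm2446 and Srp54c. No probe was listed under Srp54b or Srp54c, and the signal of a probe with several matches cannot be assigned to 1 of them. Few probes share this property: among autosomal probes outside the stretch 57 had more than 1 match.

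On chromosome 14 every window probe had 1 match in mm9. The 8 from Slc25a37 to Loxl2 are shown in genome order because their values change from one probe to the next within the same gene.
Slc25a37, proximal probe, chr14:69867118-69867177: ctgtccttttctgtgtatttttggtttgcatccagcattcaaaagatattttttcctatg
Slc25a37, middle probe, chr14:69877295-69877344: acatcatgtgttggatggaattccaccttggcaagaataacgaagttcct
Slc25a37, distal probe, chr14:69891300-69891359: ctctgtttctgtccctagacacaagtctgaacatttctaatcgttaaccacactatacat
Synb, chr14:69908873-69908932: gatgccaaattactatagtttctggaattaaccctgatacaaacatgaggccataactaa
Entpd4, proximal probe, chr14:69955867-69955926: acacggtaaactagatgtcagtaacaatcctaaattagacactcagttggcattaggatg
Entpd4, distal probe, chr14:69984198-69984257: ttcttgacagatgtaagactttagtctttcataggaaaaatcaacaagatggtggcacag
AK031288, chr14:69986956-69987015: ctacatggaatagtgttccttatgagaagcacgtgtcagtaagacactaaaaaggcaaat
Loxl2, window probe, chr14:70044622-70044681: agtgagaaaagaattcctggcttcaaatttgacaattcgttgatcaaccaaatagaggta

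For each tumour, the log2 ratio of a probe was taken over the median of its 40 flanking probes, so that a gain or loss of a larger part of the chromosome does not enter. This mattered on both chromosomes. The flank median on chromosome 12 was 0.42 in 231 Trig, 0.36 in A202 and -0.32 in A382, and on chromosome 14 it was 0.50 in B76 and -0.48 in A18. All values over the flanks below are log2 differences in this sense.

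Over its flanks, the chromosome 12 stretch was at about the same height in the 4 C57BL/6J tumours and at widely different heights in the 7 mixed ones. The mean of the 6 probes was 0.95 in B86, 1.03 in B91, 0.98 in B96 and 0.97 in B76, a group mean of 0.98 ± 0.04 (SD, n = 4) or 1.98-fold. Among the mixed tumours it was 0.08 in A18, 0.53 in A292, 0.59 in A394, 0.66 in A202, 0.79 in A382, 0.94 in 231 Trig and 0.97 in A390, a mean of 0.65 ± 0.30 (SD, n = 7) or 1.57-fold. A202 and 231 Trig each lacked 1 probe, so their means rest on 5 probes. Over the 4 probes measured in every tumour, the C57BL/6J tumours read 1.01 to 1.09, A390 1.01, 231 Trig 1.00 and the other mixed tumours 0.12 to 0.84. A390 and 231 Trig thus stood inside or at the lower edge of the C57BL/6J range, depending on the probes, and the other 5 lower. A18 stood alone near its flanks.

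Srp54a itself had 1 probe. Over the flanks it read 0.55 in B86, 0.95 in B91, 0.82 in B96 and 0.78 in B76. In the mixed tumours it read -0.01 in A18, 0.67 in 231 Trig, 0.86 in A390, 0.46 in A292, 0.70 in A382 and 0.40 in A394, while its spot in A202 was marked by the scanner software and has no value. The 2 groups overlapped, with B86 below 3 of the mixed tumours.

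AK021321, a cDNA clone name, lies 19.1 kb beyond the Srp54a probe. It was 0.98 ± 0.05 (SD, n = 4) over the flanks in the C57BL/6J tumours, and 0.00 in A18, 0.40 in A292, 0.57 in A394, 0.66 in A382, 0.70 in A202 and 0.93 in A390, with a marked spot in 231 Trig. A390 fell inside the C57BL/6J range of 0.91 to 1.02, and the other 5 measured tumours fell below it.

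The probes of 1700047I17Rik1, also a clone name, gave the highest value of the stretch. At its distal probe the C57BL/6J tumours read 1.42 to 1.57 and the mixed tumours 0.44 in A18 to 1.41 in 231 Trig. At its proximal probe, 4.18 kb away, the same tumours read 0.83 to 0.97 and -0.11 to 0.96. The distal probe was above the proximal one in all 11 tumours, A18 included. Both unnamed probes followed the same order of tumours at their ends: A18 was lowest, at 0.19 and -0.03, and B91 highest, at 0.87 and 1.05.

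At the lower edge of the stretch, the 2 probes of 2700097O09Rik averaged 0.03 ± 0.11 over the flanks in the C57BL/6J tumours and 0.04 ± 0.07 in the mixed ones (SD, n = 4 and 7), and the nearest named probe below the window, AK141706, read 0.07 to 0.35. At the upper edge the nearest probes, both of AK151976, read -0.15 to 0.21. The 6 raised probes span 41.4 kb. The third probe beyond the window, in the proteasome subunit gene Psma6 and singled out after its values were seen, was highest in A18 at 0.18 and lowest in B86 at -1.08. The other Psma6 probe did not share this spread. It read -0.22 in A18 and -0.25 in B86, and all tumours lay between -0.25 and -0.02.

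The chromosome 14 stretch was close to constant in the C57BL/6J tumours and ranged from the level of its flanks up to that of the C57BL/6J tumours in the mixed ones. The mean of its 9 probes over the flanks was 0.62 in B86, 0.62 in B91, 0.62 in B96 and 0.63 in B76, a group mean of 0.62 ± 0.0044 (SD, n = 4) or 1.54-fold. In the mixed tumours the mean was 0.63 in A390, 0.47 in A202, 0.34 in A394, 0.11 in A18, -0.02 in 231 Trig, -0.03 in A292 and -0.06 in A382, with a group mean of 0.21 ± 0.27 (SD, n = 7) or 1.16-fold. Without A390 the mixed mean was 0.14. The flank median of B76 was 0.50, far above the other C57BL/6J tumours, yet its stretch stood as high over those flanks as theirs. Single probes varied more than this mean: within the C57BL/6J tumours their SD over the flanks reached 0.25 at the proximal Slc25a37 probe. The small SD of 0.0044 also depended on the processing. It was 0.029 with 10 and 0.012 with 40 flanking probes per side, and 0.083 when the median of the window probes was taken.

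The order of the mixed tumours was not the same in the 2 stretches. A390 was at or next to the range of the C57BL/6J tumours in both. 231 Trig was next highest on chromosome 12 and near its flanks on chromosome 14. A18 was the lowest on chromosome 12 but above 231 Trig, A292 and A382 on chromosome 14. A382 and A292 were raised on chromosome 12, at 0.79 and 0.53, and lay at or just under their flanks on chromosome 14.

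Entpd4 was read by 2 probes. Their mean over the flanks was 1.11 in B86, 0.98 in B91, 0.94 in B96 and 1.02 in B76. Among the mixed tumours it was 1.05 in A390, 0.87 in A202, 0.55 in A394, 0.23 in A18, 0.12 in A292, 0.10 in A382 and 0.07 in 231 Trig. Only A390 of the mixed tumours reached the C57BL/6J range. The proximal Entpd4 probe was not well above background on 1 array. Both channels of A202 stood much lower with this probe than without it, so the Entpd4 mean of 0.87 in A202 is less certain. Next to the distal probe, AK031288, another cDNA clone name, read 0.99 to 1.20 in the C57BL/6J tumours and 0.20 to 1.07 in the mixed ones.

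Synb, the gene of the placental envelope protein syncytin-B, stands under an older clone name in the files. It read 0.83 in B86, 0.75 in B91, 0.79 in B96 and 0.87 in B76. Of the mixed tumours, A390 was at 0.84, A202 at 0.59 and A394 at 0.48, and the other 4 lay between -0.21 and -0.15. So 3 mixed tumours stood with or towards the C57BL/6J tumours and 4 stood below their flanks.

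Slc25a37 changed within the gene. Its proximal probe ranged from -0.31 in A202 to 0.39 in A18 and showed no separation of the backgrounds, at -0.28 to 0.22 in the C57BL/6J tumours. The middle probe, 10.1 kb on, read 0.52 to 0.69 in the C57BL/6J tumours and -0.33 to 0.62 in the mixed ones. At the distal probe these ranges were 0.40 to 0.53 and -0.26 to 0.55. The gene mean of 3 probes, 0.36 ± 0.08 in the C57BL/6J tumours and 0.08 ± 0.21 in the mixed ones (SD, n = 4 and 7), therefore joins probes that did not behave alike.

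Below the window, the nearest named gene, Nkx2-6, read -0.36 to -0.08, and the backgrounds overlapped there. The upper end of the window cut through Loxl2, which encodes a lysyl oxidase-like enzyme of the extracellular matrix. Its window probe read 0.18 to 0.41 in the C57BL/6J tumours and -0.57 to 0.29 in the mixed ones. Both Loxl2 probes just outside the window, counted here among the flanks, were spread in the same way, at 0.09 to 0.56 and 0.39 to 0.60 in the C57BL/6J tumours against -0.69 to 0.47 and -0.46 to 0.56 in the mixed ones. The next probe, of AF117951, read -0.06 to 0.13 in all tumours. From the middle Slc25a37 probe to the last Loxl2 probe, most mixed tumours read below all C57BL/6J tumours. This covered 206 kb and 9 probes, of which 7 are in the window. In the RefSeq order of GRCm38 the protein-coding genes between Entpd4 and Loxl2 are Gm16867, Gm21451, LOC115488278 and Entpd4b, none of them on the array by these names.

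How unusual such heights are on this array was read from all autosomal probes, each taken over the 20 probes on either side of it. All 4 C57BL/6J tumours were at least 0.2 above those neighbours at 7.14% of 40726 autosomal probes, at 6 of 8 probes of the chromosome 12 stretch and at 6 of 9 of the chromosome 14 stretch. At least 6 of the 7 mixed tumours were that high at 6.21% of autosomal probes, at 4 of 8 probes of the first stretch and at 2 of 9 of the second. At least 3 of the 7 were that high at 19% of autosomal probes, at 6 of 8 and at 5 of 9. These counts use the contrast that chose the stretches, so nothing is read from them. Among probes with more than 1 match, all 4 C57BL/6J tumours passed at all 6 in the stretch and at 10 of the other 57 autosomal ones (17.5%), against 7.11% of 40663 autosomal probes with 1 match. The count in the stretch again comes from the ratio that chose it, so no link with the number of matches is read from it.

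The spread between tumours was likewise wide at the raised probes. The SD over 11 tumours, on the same scale over neighbours, lay between the 85.1 and the 97.7 percentile of autosomal probes at the 6 chromosome 12 probes with several matches. On chromosome 14 it lay between the 96.5 and the 98.8 percentile from the middle Slc25a37 probe to Loxl2. At the proximal Slc25a37 probe, which did not separate the backgrounds, it was at the 94.9 percentile. It was at the 49.8 and 28.8 percentile for the 2700097O09Rik probes. These percentiles use the ratio that chose the stretches, so they are a description and no support for them.

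The strain backgrounds were compared at every autosomal and X probe with limma on the log2 ratio, and a call needed a difference of at least 0.2 in size with an adjusted p (Benjamini-Hochberg) below 0.05. None of the 17 probes was called (12 of 42295 probes, 0.0284%, were called in all). On chromosome 14 the C57BL/6J tumours were higher at all 9 probes, by a median of 0.80, and 7 of 9 had an unadjusted p under 0.05, where 4.99% of all probes had one in that direction. Neighbouring probes of a stretch vary together over the same tumours, so such counts, here and below, are not of independent probes. The differences at these 7 probes ran from 0.64 to 0.89. The smallest limma adjusted p among them was 0.26, at the middle Slc25a37 probe, with a difference of 0.80 (SE 0.18).

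On chromosome 12 the C57BL/6J tumours were higher at 6 of 8 probes by limma, with a median difference of 0.17, and 0 of 8 probes had an unadjusted p under 0.05 (8.65% of all probes did in either direction). That median was 0.04 without A18, 0.29 without 231 Trig and 0.25 with normexp. The smallest adjusted p was 0.58, at AK021321, with a difference of 0.33 (SE 0.18). When each probe was taken over its own neighbours, which removes the gains of the whole chromosome in 231 Trig and A202, 5 of 8 probes had an unadjusted p under 0.05, all higher in the C57BL/6J tumours, against 3.82% of all probes in that direction and 6.97% in either. The median difference was then 0.32 on chromosome 12 and 0.51 on chromosome 14, where 7 of 9 probes were higher in the C57BL/6J tumours and 2 lower, and still none of the 17 probes was called (0.142% of all probes were). Since the stretches were picked with these arrays in view, the strain difference is no independent support for them.

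All 3 slides held both backgrounds, so the difference could be read within each. For the chromosome 14 window mean over the flanks, C57BL/6J minus mixed was 0.44 on slide 1, 0.44 on slide 2 and 0.48 on slide 3. For the chromosome 12 window mean over the flanks it was 0.29, 0.22 and 0.20. Each slide held 1 or 2 arrays of C57BL/6J tumours, so these values have no test of their own. A382 was on slide 2 at passage 8 and on slide 3 at passage 9, so the values of these slides share a tumour. On the plain ratio, the median chromosome 12 probe differed by -0.0030 on slide 1, which held 231 Trig and A202 with their raised flanks.

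The backgrounds were also compared in each dye channel alone, which asks whether a difference lies in the tumour DNA or in the common reference. With limma on the log2 tumour signal alone, 6 of 9 probes had an unadjusted p under 0.05, all higher in the C57BL/6J tumours (2.04% of all probes), with a median difference of 0.78 on chromosome 14. These signals were not taken over the flanks, so gains and losses around the stretch enter the differences. The reference channel, which held DNA with the same label on every array, had 0 of 17 probes at that level (0.589% of all probes in either direction), and its median difference on chromosome 14 was 0.05. At so low a share, 0 of 17 probes says little. The largest reference difference was 0.55 (SE 0.84), at the proximal Entpd4 probe. No probe of either stretch or of the whole array was called in a single channel (0% called). On chromosome 12 the tumour channel had 0 of 8 probes with an unadjusted p under 0.05 (4.82% of all probes in either direction), with a median difference of 0.07.

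Each probe was also set against its own mean over the tumours in each channel, less the same measure in the flanks. For the 6 chromosome 12 probes the SD over 11 tumours was 0.31 in the tumour channel and 0.13 in the reference channel. In the tumour channel A18 was lowest at -0.63, followed by A292 at -0.31, A394 at -0.25, A382 at -0.10, A202 at 0.07, A390 at 0.18 and 231 Trig at 0.34, and the C57BL/6J tumours lay between 0.11 in B76 and 0.38 in B86. The reference channel of A18 was at 0.03. For chromosome 14 without the dim Entpd4 probe the SD was 0.32 in the tumour channel and 0.12 in the reference channel. There the tumour channel was -0.42 in 231 Trig, -0.39 in A18, -0.29 in A292 and A382, -0.07 in A202, 0.06 in A394 and 0.36 in A390. It was 0.33 in B91 and B76 and 0.38 in B96. The group means were 0.26 in the C57BL/6J and -0.15 in the mixed tumours. With the dim probe kept, A202 read -0.50 in the tumour and -0.62 in the reference channel, against -0.07 and -0.17 without it. The reference channel moved with the slide: on the 4 arrays of slide 1 it was 0.03 to 0.28 on chromosome 12 and -0.23 to -0.05 on chromosome 14, and in the other tumours -0.12 to -0.05 and 0.04 to 0.11. In B86 on chromosome 14 the tumour channel was at 0.01 and the reference channel at -0.23, so its high ratio came with a low reference signal. Slide 1 was read on another scanner, and its part in these signals was not tested.

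The repeat arrays of A382 differed little at these probes. Between passages 8 and 9 the absolute difference in log2 ratio had a median of 0.07 and a maximum of 0.19 on chromosome 12 and a median of 0.08 and a maximum of 0.13 on chromosome 14. Over all 40723 autosomal probes measured on both arrays the median was 0.06 and the 95th percentile 0.19. At the proximal unnamed probe of chromosome 12 A382 read 0.33 at passage 8 and 0.52 at passage 9.

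Genes elsewhere that varied most like the stretches were ranked by Pearson's r with the window mean over 11 tumours, each value over its chromosome median. They share the arrays and their scanner effects with the stretches, and the ranking is a description. For chromosome 12, 5216 genes on other chromosomes were compared. The highest were Tbc1d23 (r = 0.93) on chromosome 16, Tubgcp5 (0.92) on chromosome 7, Mfhas1 (0.92) on chromosome 8, G3bp2 (0.91) on chromosome 5 and Trmt10b (0.88) on chromosome 4. Without A18 and A292, the tumours farthest from the median, Mfhas1 stayed at 0.92 and Tubgcp5 was at 0.71. Mfhas1 ranged from -1.65 in A18 to 0.57 in B91.

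For chromosome 14, 5154 genes were compared. AK046490 on chromosome 7 came first (r = 0.98, and 0.97 without A382 and 231 Trig), then AK016591 (0.94) on chromosome 10, 9530077C05Rik (0.91) on chromosome 9, Nat8f1 (0.90) on chromosome 6 and Epor (0.90), the erythropoietin receptor gene, on chromosome 9. The single AK046490 probe read 0.22 to 0.54 in the C57BL/6J tumours. In the mixed tumours it read 0.17 in A390, 0.07 in A202, 0.03 in A394, -0.32 in A18, -0.43 in 231 Trig, -0.51 in A382 and -0.58 in A292.

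Other genes of the pathways of Srp54a, Entpd4 and Slc25a37 were read as gene means over all 11 tumours against the reference, with limma over 20692 genes, of which 18.4% rose and 14.9% fell; the median of all genes was -0.0018. The 3 genes themselves are left out of these counts, since their ratio chose them. These gene means were not taken over flanks, so gains and losses of larger parts of a chromosome enter them. Srpr, Entpd3 and Alas1, named below, all lie on chromosome 9. The part of such shifts in each gene was not tested. Of 10 other signal recognition particle and receptor genes, 7 were measured, 1 rose and 4 fell, with a median of -0.23. Srp54a stood at 0.55 ± 0.32 (SD, n = 10 tumours). Srp68, a protein that binds the particle's RNA, rose by 0.71 ± 0.19, above 0 in 11 of 11 tumours. Srp14, of the part that slows translation, fell by 0.75 ± 0.95, and Srpr, the receptor subunit, fell by 0.49 ± 0.17 (SD, n = 11 each). The limma adjusted p was 7.3e-08 for Srp68, 0.015 for Srp14 and 1.7e-06 for Srpr.

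Of 8 other nucleoside triphosphate diphosphohydrolase genes, 7 were measured, 1 rose and 3 fell, and the median was -0.15. Entpd4 itself was at 0.55 ± 0.56, 1.08 in the C57BL/6J and 0.25 in the mixed tumours. Entpd2 fell by 0.40 ± 0.26, Entpd5 by 0.32 ± 0.25 and Entpd3 by 0.27 ± 0.18 (SD, n = 11 each). The limma adjusted p was 3.0e-04 for Entpd2, 0.0012 for Entpd5 and 5.0e-04 for Entpd3.

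Among 18 other genes of mitochondrial iron import, heme and iron-sulfur synthesis, 16 were measured, 1 rose and 3 fell, and the median was -0.04. Slc25a37 was at 0.09 ± 0.34 (SD, n = 11). Alad, the second enzyme of heme synthesis, rose by 0.58 ± 0.69 with limma adjusted p = 0.011, at 0.09 in the C57BL/6J and 0.86 in the mixed tumours, and did not pass without slide 1. Alas1, the rate-limiting first enzyme outside red cells, fell by 0.37 ± 0.14, and Cpox by 0.31 ± 0.13 (SD, n = 11 each). Their limma adjusted p were 9.6e-06 and 3.3e-05. Between the backgrounds no gene of these lists was called by limma, and 3 of 20692 genes (0.0145%) were called over the array.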

How the data were processed

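The authors deposited 1 scanner file per array, in which each spot has a log10 ratio of tumour (red) over reference (green) and the processed, mean and background intensity of both channels, per the file headers. Positions are in mm9. That build and Agilent Feature Extraction 9.5 are given by the submitters' processing notes. The deposited value table held the same log10 ratios (largest absolute difference 2e-16). Here the ratios were put on the log2 scale, control spots were left out (43020 spots remained), spots marked by the scanner software were set to missing, and spots of a probe were averaged to 42404 probes. The median of the 40726 autosomal probes was subtracted on each array. Channels apart are log2 of the processed signals, centred in the same way. Median signals were 1005 to 1192 in the reference and 1019 to 1201 in the tumour channel. The number of arrays limits precision. Tumour DNA had the same dye on all arrays, so dye and tumour effects cannot be told apart, and the reference's own spread is not in a test against 0. File gene names were replaced by current symbols where a RefSeq accession matched, at 28951 of 29337 probes with an accession.

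Tests used limma 3.58.1 in R 4.3.3 over 42295 autosomal and X probes, or over 20692 genes, with Benjamini-Hochberg adjustment, and were tested on simulated data. The alternatives were other background corrections, normalizations, centrings, flank sizes, slide and single tumours left out. The members, lists and tests were chosen with earlier results of these data known. One chromosome 14 window probe is part of the window means and counts but is not reported here by itself. Named are all other window genes, the nearest named gene on each side, up to 4 genes of each list (members, then the largest called), and the 5 genes elsewhere most like each stretch among those with a mean absolute value of at least 0.2. Exon positions are not given, as no mm9 annotation was used here.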

Additional observations from a re-analysis of the deposited data

How the results depend on the processing

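Under all 22 alternatives 0 probes of either stretch were called between the backgrounds by limma with the ratio, and under 20 alternatives 0 in each channel, while the number of the 9 chromosome 14 probes with an unadjusted p under 0.05 was 6 to 8. On chromosome 12 this count ran from 0 to 5 of 8. The number called over all probes, 12, moved to 25 with normexp, 3 with centring on the mode, 60 with local centring, 1 with slide as a block (A382 at passage 8), 0 without slide 1, 2 without A18, 1 without A202, 22 without A390, 20 without A394 and 1 or 2 with a single C57BL/6J tumour left out. The genes called over the array, 3, moved to 16 with normexp, 0 without slide 1, 1 without A202 or B86, 8 without A390 and 5 without A292 or A394. Without slide 1 no gene of the iron and heme list rose. The C57BL/6J mean over the flanks on chromosome 12, 0.74 for all 8 probes, moved to 0.89 with normexp, 0.65 with 40 flanking probes per side, 0.84 as the median probe and 0.98 with the probes of several matches alone, an alternative added after the data were seen. On chromosome 14 the mean of 0.62 moved to 0.67 with normexp, 0.58 with mean minus background signals, 0.63 with loess, 0.59 without dim probes, 0.65 and 0.68 with 10 and 40 flanking probes per side and 0.61 as the median probe. No direction reversed, and the cause of these shifts was not tested. Leaving out slide 1 for the window means, the values within slides and the 4 chromosome 12 probes measured in every tumour were also added after the data were seen. No paired analysis was possible because the replicate numbers only name the tumours. Outlying tumours were looked for in 38 groups of values, and 0 were found.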
